A study of Drosophila melanogaster with 2 samples.

Results

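The 9 genes described here belong to the insulin pathway of the fly, and their expression was compared between neural progenitor and glial nuclei. They were taken by symbol out of the 13623 genes of the expression table, and all 9 were found in it. Of these, 5 encode ligands (Ilp2, Ilp4, Ilp5, Ilp6 and Ilp7) and 4 encode signaling components (InR, chico, Akt1 and foxo). Insulin-like peptides (Ilps) are secreted hormones that bind the insulin receptor InR. The activated receptor recruits the adaptor chico and phosphatidylinositol 3-kinase, which turn on the kinase Akt1. Akt1 in turn keeps the transcription factor foxo out of the nucleus and, through TOR, promotes growth. In the fly larva, glia at the surface of the brain are known to release insulin-like peptides, Ilp6 among them, that bring quiescent neural stem cells back into division.

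Total nuclear RNA was sequenced from 1 library of gcm-expressing neural progenitors (GNP) and 1 library of glia. GNP nuclei came from embryos 5–7 h after egg laying that carried gcm-Gal4, UAS-mCDGFP (balancer cyo) and UAS-3xFLAG-blrp-mCherry-RanGap. Glial nuclei came from embryos 12–14 h after egg laying that carried repo-Gal4 and the same UAS-3xFLAG-blrp-mCherry-RanGap transgene (balancer Tm3B). In both, the tagged nuclear envelope protein was expressed under Gal4, and nuclei were pulled from homogenates of whole crosslinked embryos with anti-FLAG beads. The driver limits each group as a model, because gcm is also known to be active in blood cell precursors and repo is active in nearly all glia but not in midline glia. Cell type, age and driver line differed together and cannot be told apart. With 1 library per group, no difference below has a replicate check, and no p-value was computed.

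Values are FPKM, which are reads per kilobase of transcript and per 1 M mapped reads, so levels can be set side by side between genes. Changes are log2((glia FPKM + 1)/(GNP FPKM + 1)), which understates the change of low genes, and a gene at least 2-fold apart on this scale is called higher or lower. The steps between low values, each worth 1 read, placed the depth at 63.6 M reads (GNP) and 52.1 M reads (glia). Of 9 glial marker genes, 5 were called higher in glia and 0 lower, with repo at 3.84 FPKM in GNP against 32.0 FPKM in glia. The other 4 were within 2-fold, with log2 changes of 0.60 (Gli), 0.26 (loco), 0.36 (Eaat1) and -0.06 (Gs2). Among the 5, nrv2 was at 1.12 and fell under the limit with TPM scaling, at 0.87. Of 6 neural progenitor markers, 4 were lower and 0 higher. Markers of other cells differed as well. Of 7 neuronal markers 5 were higher, with a summed level of 111 FPKM in GNP against 507 FPKM in glia. Most of the glial sum was fne, at 14.7 and 327 FPKM, and without it (a sum added after the values were seen) the other 6 came to 96.4 and 180 FPKM. The pan-neuronal gene elav went the other way, at 76.9 and 44.2 FPKM, and para was not called. Of 8 mesoderm and muscle markers 4 were higher and 3 lower, with sums of 822 and 4989 FPKM. In such bulk libraries, fewer cells of a type and less RNA per cell cannot be told apart.

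Of the 9 genes, 6 averaged at least 1 FPKM over both libraries and 3 (Ilp2, Ilp5 and Ilp7) lay far below it. In GNP the order was Ilp4, Akt1, chico, InR, foxo and Ilp6, and in glia it was Ilp4, Akt1, InR, Ilp6, foxo and chico. The counting intervals of foxo and Ilp6 overlapped in both libraries and those of foxo and chico in glia, so these neighbours were not ordered beyond counting error. The 6 genes spanned 9.27-fold in GNP and 2.35-fold in glia. Without Ilp4, the other 5 lay between 13.8 and 47.0 FPKM in GNP and between 25.8 and 39.4 FPKM in glia.

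**Figure D1:**
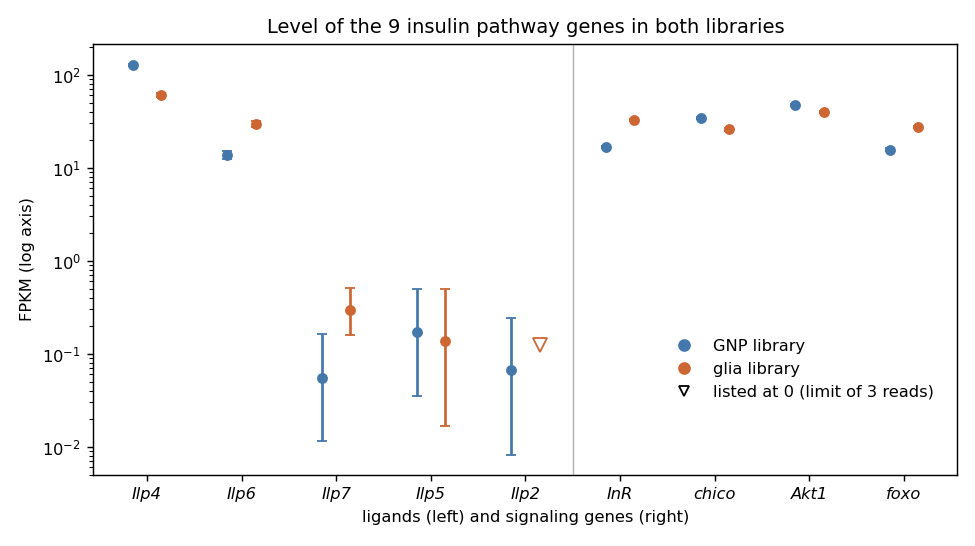
FPKM on a log axis of the 5 ligand genes (left) and the 4 signaling genes (right) in the GNP library (blue) and the glia library (orange). Points are single libraries, bars are exact 95% Poisson intervals of the estimated reads, and the open triangle marks a gene listed at 0, drawn at the level of 3 reads. Ilp2, Ilp5 and Ilp7 lie at or below 0.293 FPKM, and the other 6 genes at or above 13.8 FPKM.

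Ilp4, a ligand known from the embryonic mesoderm and midgut, was the highest of the 9 genes in both libraries and the only one called lower in glia. It was at 128 FPKM in GNP against 60.6 FPKM in glia. These values placed it above 94.5% of all genes in GNP and above 87.6% in glia. The log2 change was -1.07, which was under the limit with upper quartile scaling, at -0.87. The ratio of the values was 2.11-fold lower in glia, with a counting interval of 2.00 to 2.23 from about 4911 and 1905 reads. Ilp4 lies on chromosome 3L of the BDGP6 annotation, from 9803399 to 9804263 on the minus strand, with 1 transcript of 804 bases in 2 exons. The values themselves were made on dm3, an earlier build, so places and lengths from BDGP6 apply to them only approximately.

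The early mesoderm markers twi, bap and tin were called lower in glia too, while the muscle genes Mhc, Act57B, wupA and Mlc1 were called higher. The remaining marker of that list, Mef2, was not called, at 58.3 FPKM in GNP against 43.7 FPKM in glia. The 4 gut markers summed to 87.8 FPKM in GNP against 83.8 FPKM in glia, with GATAe higher and 0 lower. This sum hides opposite changes. GATAe was at 13.0 FPKM in GNP against 37.2 FPKM in glia, and fkh at 52.9 and 27.4 FPKM. The change of fkh was -0.92, and it passed the limit with TPM scaling, at -1.18. The changes of cad and byn were -0.26 and 0.04. The part of these cells in the change of Ilp4 was not tested.

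Ilp6, the ligand known from fat body and glia, was the only one of the 9 genes called higher in glia. It was at 13.8 FPKM in GNP against 29.2 FPKM in glia, a log2 change of 1.03. The call was lost with TPM scaling, at 0.80, and after centring on the median gene, at 0.97, while InR was called as well with upper quartile scaling, at 1.11. The ratio was 2.12, with a counting interval of 1.86 to 2.41. Ilp6 lies on chromosome X from 2331493 to 2334658 on the minus strand, with 4 annotated transcripts of 634 to 1908 bases, each with 3 exons. Its values therefore correspond to between 381 and 1499 reads in GNP and between 660 and 2598 in glia, depending on the transcript. A shift between short and long transcripts would move the FPKM value and was not tested.

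Fat body markers were 1 of 5 higher and 0 lower, with summed levels of 158 FPKM in GNP against 378 FPKM in glia. That sum was mostly Rfabg, the lipophorin precursor, at 94.3 and 318 FPKM, while Lsp2 and Fbp1 stayed at or below 0.261 FPKM in both libraries. The other markers were srp, at 45.2 FPKM in GNP and 28.5 in glia, and svp, at 18.3 and 32.0 FPKM. Hemocyte markers were 2 of 5 higher (Pxn and vkg) and 0 lower, with sums of 78.8 and 232 FPKM. Of the other 3, crq was at 29.5 FPKM in GNP and 21.9 in glia, Hml at 0.945 and 0.120 FPKM, and eater at 0.0556 FPKM and listed at 0. The part of these cells in the change of Ilp6 was not tested.

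Together the 8 Ilp genes of the table summed to 142 FPKM in GNP against 92.0 FPKM in glia. Shares of this sum do not depend on how the libraries are scaled. Ilp4 made up 90.0% of it in GNP and 65.8% in glia. Ilp6 made up 9.70% in GNP and 31.7% in glia. The ratio of Ilp4 to Ilp6 was 9.27 in GNP and 2.07 in glia, a 4.47-fold difference. The remaining 6 genes together held 0.341% in GNP and 2.47% in glia, most of the latter from Ilp8, with 1.89%. This ratio and the others between genes below were chosen after the values were seen.

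**Figure D2:**
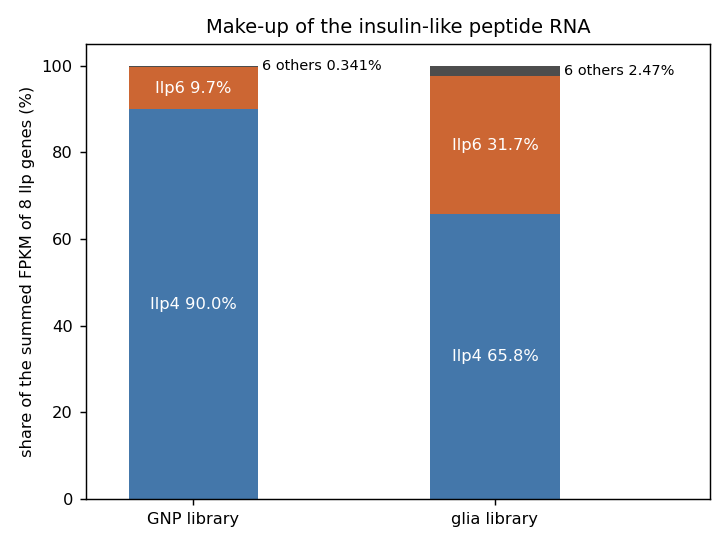
Share of the summed FPKM of the 8 Ilp genes, in percent, taken by Ilp4 (blue), Ilp6 (orange) and the other 6 genes together (grey) in the GNP library and the glia library. Ilp4 is the larger share in both bars, with 90.0% in GNP and 65.8% in glia, and Ilp6 takes 31.7% in glia.

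Ilp2, Ilp5 and Ilp7 were near the limit of detection. Ilp2 and Ilp5 are known as hormones of the insulin-producing neurons of the larval brain. Ilp2 was at 0.0665 FPKM in GNP, which is 2 reads, and was listed at 0 in glia, where 3 reads would have given 0.123 FPKM. Ilp5 was at 0.170 FPKM in GNP against 0.138 FPKM in glia, or 3 and 2 reads. For both genes the 2 libraries stayed at or under 3 reads, so no fold is given and a difference was not detectable at this depth. Ilp7, known from neurons of the ventral nerve cord, was at 0.0553 FPKM in GNP against 0.293 FPKM in glia, or 3 and 13 reads. The ratio of 5.30 had a counting interval of 1.45 to 28.9. On the log2(FPKM + 1) scale its change was 0.29, because the pseudocount of 1 is larger than both values.

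Of the ligand genes outside the 9, Ilp1 was listed at 0 in both libraries and Ilp3 was at 0.170 FPKM in GNP against 0.104 FPKM in glia, or 6 and 3 reads. Ilp8, the relaxin-like peptide that in the larva delays metamorphosis after tissue damage, was at 0.0234 FPKM in GNP against 1.74 FPKM in glia, or 1 and 60 reads. Its ratio of 74.5 had a counting interval of 12.7 to 2941.

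Nuclear RNA includes unspliced transcripts, so the genes around each ligand gene are given with their levels. Ilp1 to Ilp5 form a cluster on chromosome 3L that spans 25478 bases. Ilp3 and Ilp4 are 1278 bases apart, yet only Ilp4 was well above 1 FPKM. Ilp2 takes up positions 9799698 to 9800440 (plus strand). Ilp2, Ilp3 and Ilp4 sit in introns of CG32052, which was at 0.187 FPKM in GNP against 0.394 FPKM in glia. Ilp1, listed at 0 in both libraries, shares 258 of its 631 exon bases with CG32052 on the same strand. Ilp5 lies from 9823349 to 9823897 on the minus strand within an intron of CG43897. That gene was at 25.3 FPKM in GNP against 143 FPKM in glia, while Ilp5 had 3 and 2 reads.

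Ilp6 sits in an intron of the kinase gene Raf (phl in the table) on the opposite strand. Raf was at 28.2 FPKM in GNP against 11.2 FPKM in glia, a log2 change of -1.25, against 1.03 for Ilp6. Ilp7 lies on chromosome X from 3667621 to 3668845 on the plus strand and shares 9 of its 1044 exon bases with Parg on the other strand. Parg was at 35.3 FPKM in GNP against 5.72 FPKM in glia. Ilp8 shares 3 of its 867 exon bases with CG7730 on the other strand, which was at 33.3 FPKM in GNP against 0.986 FPKM in glia. It shares 26 more with the noncoding RNA gene CR45756 on its own strand, which was not matched among the genes with values. Whether the library kit kept the strand is not given in the sources used here, so reads in shared bases cannot be assigned. The same holds for reads of an unspliced transcript whose intron contains a ligand gene, as that of Raf does with Ilp6. The part of such reads in the values was not tested.

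InR, the receptor for these peptides, was at 16.7 FPKM in GNP against 32.6 FPKM in glia, which moved it from above 64.0% of all genes to above 77.7%. Its log2 change was 0.92, just under the 2-fold limit. The ratio was 1.95, with a counting interval of 1.90 to 1.99 from at least 10424 and 16618 reads. InR spans 49074 bases on chromosome 3R, from 21570248 to 21619321 on the minus strand, with 4 transcripts of 9997 to 10706 bases.

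The transcription factor foxo, which acts when insulin signaling is low, was at 15.7 FPKM in GNP against 27.4 FPKM in glia. The log2 change was 0.77, with a ratio of 1.75 and a counting interval of 1.67 to 1.83. The gene lies on chromosome 3R from 14056945 to 14087978 on the plus strand, with 5 transcripts of 10 or 11 exons.

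The adaptor gene chico, which encodes the insulin receptor substrate, was at 34.6 FPKM in GNP against 25.8 FPKM in glia, a log2 change of -0.41. The ratio was 1.34-fold lower, with a counting interval of 1.29 to 1.39. It lies on chromosome 2L from 10242512 to 10247078 on the minus strand, and 380 of its 3578 exon bases are shared with an antisense RNA gene of BDGP6, CR44995. Akt1, named Akt in BDGP6, lies on chromosome 3R from 16099228 to 16105670 on the plus strand. It was at 47.0 FPKM in GNP against 39.4 FPKM in glia, or -0.25 on the log2 scale. The ratio was 1.19-fold lower, with a counting interval of 1.15 to 1.23, and its rank was similar, above 81.6% and 81.4% of all genes.

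The receptor and foxo thus lay above 0 and the adaptor and kinase between them below it. All changed by less than 2-fold on the deposited scale, so none of these 4 genes was called there. Akt1 was close to no change with upper quartile scaling, at -0.06. The ratio of InR to chico was 0.484 in GNP and 1.26 in glia, a 2.61-fold difference, and that of InR to Akt1 was 0.356 and 0.827. The ratio of foxo to Akt1 was 0.334 in GNP and 0.696 in glia. In contrast, InR to foxo was 1.07 and 1.19, and Akt1 to chico was 1.36 and 1.53. These ratios are unaffected by scaling between the libraries.

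**Figure D3:**
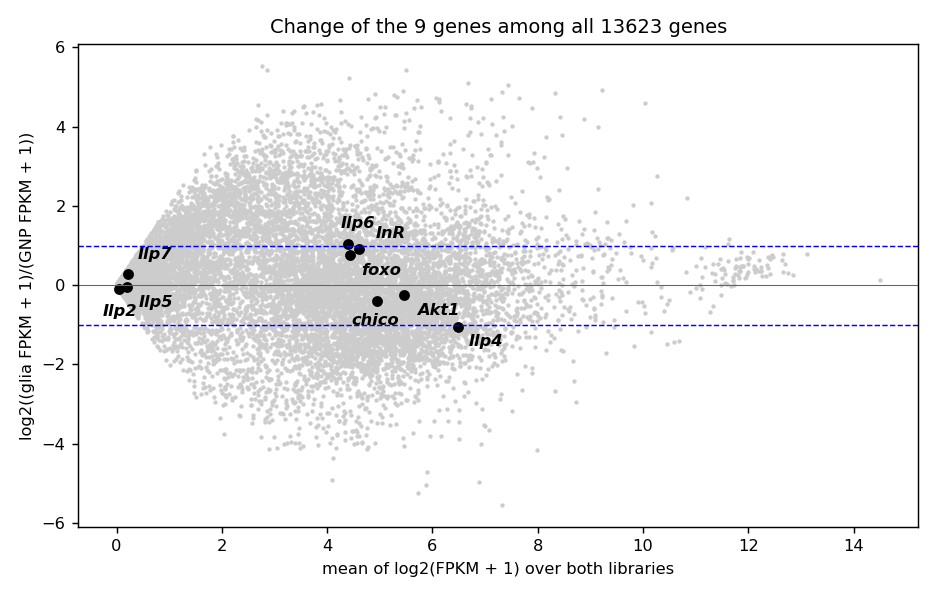
Log2 change between the libraries (vertical) against the mean log2(FPKM + 1) of both libraries (horizontal) for all 13623 genes (grey) and the 9 named genes (black). The dashed lines mark 2-fold. Ilp6 at 1.03 and Ilp4 at -1.07 lie just outside them, and the other 7 genes lie between them.

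Of the 9 genes, 1 was called higher (Ilp6) and 1 lower (Ilp4), against 21.2% and 16.4% of all genes. Among the 6 genes that averaged at least 1 FPKM, again 1 was higher and 1 lower, where 28.7% and 22.5% of the genes passing that filter were. Neither count was above the background. The 9 genes as a set had a median log2 change of -0.04, beside 0.04 over all genes. That median was the value of Ilp5, at 3 and 2 reads, so it says little about the level of the set. The 6 genes that averaged at least 1 FPKM lay on both sides of 0, from -1.07 (Ilp4) to 1.03 (Ilp6). The calls lay close to the limit. Scaling to TPM moved the log2 ratio of the plain FPKM values, glia against GNP, by -0.25, and scaling to the upper quartile by 0.20. Changes with the pseudocount of 1 moved unevenly in low genes, as for Ilp7, at 0.29 as deposited and 0.31 with TPM. Centring on the median gene moved every change by -0.06. Ilp6 was under the limit with TPM and after centring, and with the upper quartile InR passed it and Ilp4 did not. The directions of Ilp4, Ilp6, InR, foxo, chico and Akt1 were the same under all of these scalings.

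**Figure D4:**
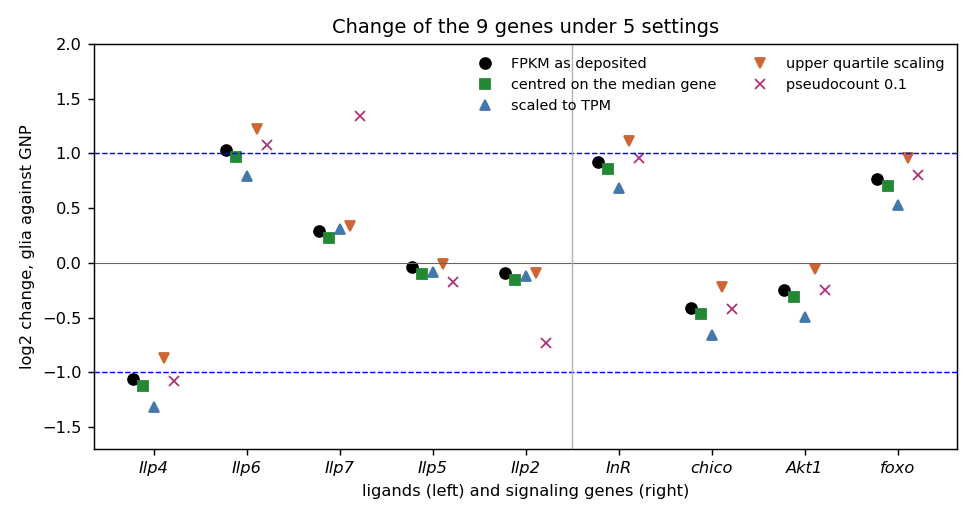
Log2 change of the 9 genes between glia and GNP with FPKM as deposited, after centring, TPM or upper quartile scaling, and with a pseudocount of 0.1 (symbols as in the legend). The dashed lines mark 2-fold. Ilp4 lies between -1.32 and -0.87 and Ilp6 between 0.80 and 1.22, on either side of the limit, and chico and Akt1 lie below 0 in each setting.

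Other genes of the pathway were taken from 6 lists by role. Of 54 genes, 53 were matched in the table (susi was not). Of these, 14 were at least 2-fold higher and 9 lower, with a median log2 change of 0.03. Over all genes, 21.2% were higher and 16.4% lower, and among genes averaging at least 1 FPKM 28.7% and 22.5% were. The counts of each list below stand beside these same shares and were not tested against them. Under every scaling, 8 of the 14 and 7 of the 9 stayed past the limit. For named genes that did not, the range of the change over the scalings is given.

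Among the 6 other ligands and secreted modulators, Ilp8 was the only one past 2-fold. ImpL2, a secreted protein that binds insulin-like peptides and antagonizes them, was at 151 FPKM in GNP against 199 FPKM in glia, a log2 change of 0.40. Its level was above that of every Ilp gene in both libraries.

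Of 7 genes for peptide hormone processing, 3 were higher and 1 lower, with a median of 0.86. That median was the value of dimm, at 0.160 and 1.11 FPKM, and among genes that averaged at least 1 FPKM it was 0.32. The prohormone convertase gene amon was at 0.952 FPKM in GNP against 5.14 FPKM in glia, a log2 change of 1.65. The gene 7B2, whose product helps that convertase mature, was at 1.18 and 5.16 FPKM, a change within 1.40 to 1.66 over the scalings. Phm, which amidates peptides, was at 22.7 and 47.3 FPKM, a change of 1.03 that ranged from 0.79 to 1.22. The furin gene Fur2 was lower, at 55.0 and 14.4 FPKM, a change of -1.86. These genes are also expressed in neurons, of whose 7 markers 5 were higher in glia and elav and para were not, and the part of neurons was not tested.

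Of the 8 matched genes next to the receptor and at the level of phosphatidylinositol 3-kinase, 1 was higher and 1 lower, with a median of -0.64. Pi3K21B, the regulatory subunit, was at 7.59 FPKM in GNP against 16.7 FPKM in glia, a change of 1.05 with a range of 0.83 to 1.23. Pi3K92E, the catalytic subunit, was at 34.0 and 20.3 FPKM, a change of -0.72. The ratio of catalytic to regulatory subunit was 4.48 in GNP and 1.21 in glia.

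The TOR branch had 22 genes, of which 7 were higher and 3 lower, with a median of 0.27. This median depended on the scaling, at 0.04 with TPM and 0.46 with the upper quartile. All 3 lower genes encode parts of TOR complexes or of their upstream inhibitor. Tsc1 was at 47.0 FPKM in GNP against 13.5 FPKM in glia, and its partner gig, the fly Tsc2, at 24.0 and 8.57 FPKM, which are changes of -1.72 and -1.38. Both act together to hold back the small GTPase Rheb. Rheb was at 42.9 and 99.6 FPKM, a change of 1.20 with a range of 0.95 to 1.39. Raptor, the scaffold of TOR complex 1, was at 16.0 and 3.71 FPKM, a change of -1.85. Tor itself was at 16.1 and 8.92 FPKM, a change of -0.79.

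The gene of the TOR list with the largest change was Thor, which encodes the 4E-BP protein that blocks cap-dependent translation. Thor was at 90.0 FPKM in GNP against 469 FPKM in glia, a log2 change of 2.37. Its binding partner, the cap-binding factor eIF-4E, was at 163 and 441 FPKM, a change of 1.44. The ratio of eIF-4E to Thor was 1.81 in GNP and 0.940 in glia. REPTOR-BP (CG18619 in the table), a transcription factor active when TOR is low, was at 60.2 and 152 FPKM, a change of 1.32.

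Thor is also a known target of foxo and stands on that list as well. Of 9 foxo partners and targets, 3 were higher and 2 lower, with a median of -0.63. Sesn, the stress-induced sestrin that restrains TOR, was at 28.5 FPKM in GNP against 113 FPKM in glia, a change of 1.95. The gene 14-3-3zeta, whose product binds phosphorylated foxo, was at 477 and 1160 FPKM, a change of 1.28. Its paralog 14-3-3epsilon was at 1338 and 825 FPKM, a change of -0.70. The lipase gene Lip4 was lower, at 31.0 and 9.78 FPKM, a change of -1.57, and dm, the fly Myc, was at 104 and 47.1 FPKM, a change of -1.13 with a range of -1.38 to -0.94. Members of this list therefore lay on both sides, and 4 of the 9 were within 2-fold.

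Alk is a receptor tyrosine kinase that in larval neural stem cells can replace InR as the source of growth signaling, and jeb encodes its ligand. Both were lower in glia under every scaling. Alk was at 8.04 FPKM in GNP against 1.98 FPKM in glia, or -1.60 on the log2 scale, and jeb was at 17.4 and 2.78 FPKM, a change of -2.28. InR, by contrast, was at a level 1.95 times that of GNP in glia. jeb is also known from visceral muscle formation. Of the 8 mesoderm and muscle markers, twi, bap and tin were called lower in glia, while Mhc, Act57B, wupA and Mlc1 were called higher. Mef2 was not called, with a change of -0.41. The part of such cells in the change of jeb was not tested.

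**Figure D5:**
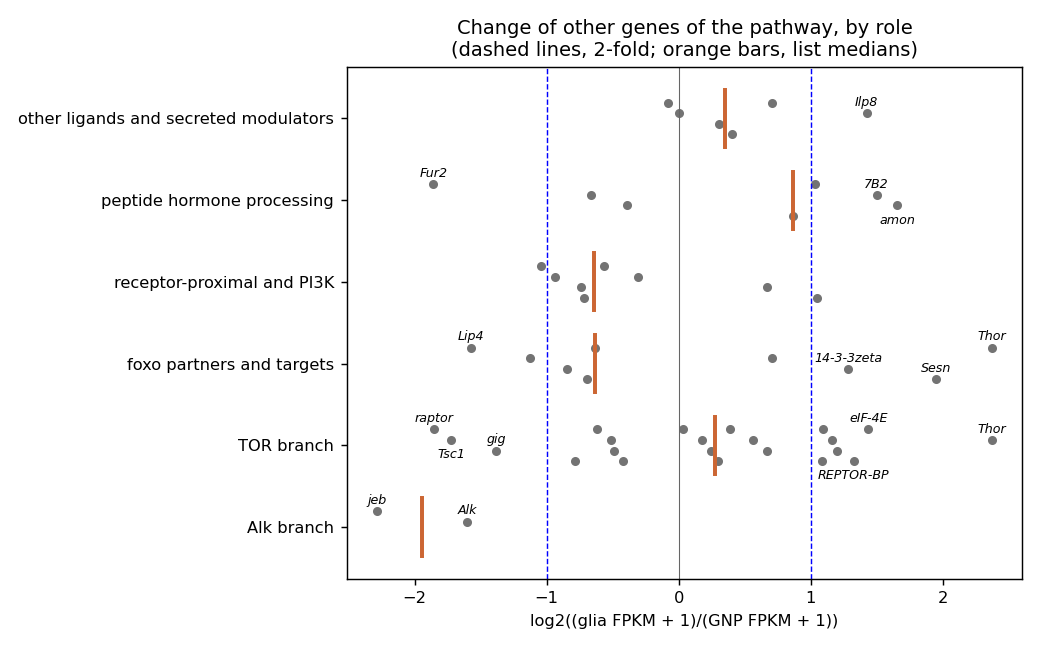
Log2 change between the glia and GNP libraries (horizontal) of the 53 other genes of the pathway, 1 point per gene and list, in 6 lists by role (vertical), with Thor on 2 lists. Orange bars are list medians and dashed lines mark 2-fold, and the genes farthest from 0 are named. Thor at 2.37 is the highest and jeb at -2.28 the lowest.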

How the data were processed

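Nuclear RNA from GNP and glia, 1 library each, was used. The authors used TopHat (version 1.3.1) to map reads to FlyBase transcripts, and expression per gene was computed with Cuffdiff (version 1.3.0) from uniquely mapped reads, and per the labels the build was dm3. The deposited values are FPKM, 1 column per library, a unit that the published methods name RPKM. The deposited table also holds p-values and calls from the authors' own comparison, which were not used. Chromatin data and protein sequences were not analysed here.

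The 9 genes and all lists were chosen with earlier results of these data known. All 9 genes are described, and from each pathway list up to 3 genes on either side past 2-fold are named. A gene of these lists that the rule also covers is not reported here. Rheb, Tor, ImpL2, Pi3K92E, 14-3-3epsilon, dimm and the single marker genes were named after their values were seen. Apart from the marker genes, no gene is named for a pattern like that of another, since 2 libraries give a single difference. Symbols were matched exactly or by a RefSeq synonym that names no other gene.

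Depth was estimated from 4718 genes with 1 BDGP6 transcript of at least 600 bases, as the number of reads at which low values were whole, assuming fragments of 200 bases (SD 80). At these depths, 84.7% (GNP) and 84.8% (glia) of the values under 6.5 reads came within 0.1 of a whole number. In 6 simulations over these genes, which assumed the same fragment lengths, the depth was recovered in 6 and 100% of low values were whole, so the lower shares here leave part of the values unaccounted for. Reads of the genes follow from it, with the shortest transcript where there were several. Intervals are exact Poisson (levels) or Clopper-Pearson (ratios) at 95% and cover counting error only. Alternatives were a pseudocount of 0.1 or none, TPM and upper quartile scaling, centring on the median gene, limits of 1.5-fold and 4-fold, and a mean of at least 1 FPKM. Values were computed in Python 3.11.15 (scipy 1.17.1, matplotlib 3.10.9, pandas 2.3.3, numpy 2.4.6).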

Additional observations from a re-analysis of the deposited data

How the results depend on the processing

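Across 20 results, 90 of 107 alternatives kept the side of the 2-fold limit or, for counts, a value within 1.5 times. The log2 change of Ilp4 was under the limit with upper quartile scaling, at -0.87. That of Ilp6 was under it with TPM, at 0.80, and after centring on the median gene, at 0.97. InR passed it with upper quartile scaling, at 1.11. No direction of these 3 genes differed. Ilp7 passed the limit with a pseudocount of 0.1, at 1.34, and with none, at 2.41, on 3 and 13 reads. The number of the 9 genes called higher was 1 as deposited, 2 with a pseudocount of 0.1 and with the upper quartile, 0 with TPM, after centring and at 4-fold, and 3 at 1.5-fold. The number called lower was 1 as deposited and 0 with the upper quartile and at 4-fold. Over all genes, 1153 genes were higher and 614 lower at 4-fold, since fewer pass a higher limit. The median of the peptide processing list was 0.86 as deposited, 1.06 with a pseudocount of 0.1 and 0.32 for genes averaging at least 1 FPKM. The median of the 53 other pathway genes was 0.03 as deposited, -0.07 with TPM and -0.03 after centring, all near 0. No paired analysis was possible because each group had 1 library. Without replicates, no alternative shows whether a difference would recur, and levels of under about 3 reads are not resolved.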
